A study of Homo sapiens with 9 samples.

Results

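PAPPA and 9 other genes of the insulin-like growth factor (IGF) axis were followed through knockdown of MYCN or HAND2 in LAN5 cells, an established human neuroblastoma line with amplified MYCN. The 10 genes (PAPPA, PAPPA2, IGF2, IGF1R, IGF2R, IGFBP2, IGFBP3, IGFBP4, IGFBP5 and IRS2) were picked by gene symbol from a table of 25084 genes, and all 10 were in it. PAPPA was chosen because it was among the highest gains in siHAND2, so its values in the siHAND2 libraries are given as a description, with no test. The other 9 were listed for their place in the pathway, but with earlier results of these data known. Their p-values and counts are therefore not those of a list chosen blind. The study asked which genes MYCN and HAND2, a pair of helix-loop-helix transcription factors, regulate in these cells. Total RNA was sequenced from 9 libraries, 3 for each of 3 groups of unmodified LAN5 cells: a control small interfering RNA (siCTR), 1 siRNA against MYCN (siMYCN_2 in the labels, siMYCN below) and 1 siRNA against HAND2 (siHAND2_3 in the labels, siHAND2 below). All cells received their siRNA by Nucleofector electroporation, were grown in RPMI-1640 with fetal calf serum, streptomycin, penicillin and L-glutamine, and were collected after 72 h. Each gene was hit with a single siRNA, so effects of the target and of the siRNA sequence cannot be told apart. Nothing in the labels says that the libraries of a group came from separate cultures, so p-values measure the spread between these libraries, which may be technical.

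The IGF ligands act through the receptor tyrosine kinase IGF1R, which signals through adapters such as IRS2 to the PI3K, AKT and RAS arms. In the extracellular space most ligand is held by IGF-binding proteins (IGFBPs), and IGF2R takes up IGF2 for breakdown without signalling. PAPPA and PAPPA2, the pappalysins, are secreted metalloproteases that free the ligand: PAPPA cleaves IGFBP4 and IGFBP5, and PAPPA2 cleaves IGFBP3 and IGFBP5. IGF2 is an imprinted fetal growth factor and is known as a growth signal in neuroblastoma.

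The RefSeq promoter table (GRCh38.p14) held windows for 9 of the 10 genes, all but IGF2. MYCN with its partner MAX is known to bind the E-box CACGTG, and HAND2 with E-proteins E-boxes such as CATCTG, so the 250 bases before the start of each gene were searched on both strands for CACGTG, for CATCTG and for CANNTG, the general E-box that contains both. The windows of PAPPA and of the 3 binding-protein genes with higher values in siHAND2 are shown because their values were higher there, and that of IGF2R because it held most E-boxes. Each runs 5′ to 3′ on the strand of the gene, with every CANNTG in capitals.
PAPPA (chr9:116153541-116153790, plus strand): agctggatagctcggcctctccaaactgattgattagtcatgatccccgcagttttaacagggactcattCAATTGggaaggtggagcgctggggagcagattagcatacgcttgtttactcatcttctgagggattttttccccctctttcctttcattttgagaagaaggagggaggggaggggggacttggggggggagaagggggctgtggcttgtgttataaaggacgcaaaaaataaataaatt
IGFBP3 (chr7:45921273-45921522, minus strand): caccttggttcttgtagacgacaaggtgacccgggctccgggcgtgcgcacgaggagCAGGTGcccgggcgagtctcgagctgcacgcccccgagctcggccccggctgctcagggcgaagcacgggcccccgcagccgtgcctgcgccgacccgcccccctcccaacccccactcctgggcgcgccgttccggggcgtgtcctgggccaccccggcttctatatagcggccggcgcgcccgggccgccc
IGFBP4 (chr17:40443200-40443449, plus strand): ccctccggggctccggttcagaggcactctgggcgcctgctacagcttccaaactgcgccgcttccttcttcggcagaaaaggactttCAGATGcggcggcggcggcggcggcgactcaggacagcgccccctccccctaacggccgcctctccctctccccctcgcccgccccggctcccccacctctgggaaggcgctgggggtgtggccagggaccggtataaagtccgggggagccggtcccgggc
IGFBP5 (chr2:216695550-216695799, minus strand): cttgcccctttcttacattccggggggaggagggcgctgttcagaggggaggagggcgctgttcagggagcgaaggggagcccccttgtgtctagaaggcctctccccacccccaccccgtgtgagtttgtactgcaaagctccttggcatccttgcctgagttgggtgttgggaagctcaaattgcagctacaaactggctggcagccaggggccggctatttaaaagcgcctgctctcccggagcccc
IGF2R (chr6:159968832-159969081, plus strand): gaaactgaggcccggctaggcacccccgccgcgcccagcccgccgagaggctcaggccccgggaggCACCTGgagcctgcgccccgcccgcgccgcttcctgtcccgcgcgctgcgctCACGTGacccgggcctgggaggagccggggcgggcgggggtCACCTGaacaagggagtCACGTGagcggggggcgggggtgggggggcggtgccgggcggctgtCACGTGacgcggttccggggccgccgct
The PAPPA window held 1 CANNTG, which read CAATTG, beginning 180 bases before the start, and neither CACGTG nor CATCTG. The IGFBP3 window held CAGGTG at 193 bases and the IGFBP4 window CAGATG, which reads CATCTG on the other strand, at 162 bases before the start, while the IGFBP5 window held none. The IGF2R window held 5, of which 3 were CACGTG, at 132, 74 and 28 bases before the start. Of 35116 promoter windows of the same length, 61.8% held a CANNTG, 12.2% a CATCTG, 6.34% a CACGTG and 0.0797% at least 3 CACGTG. As the IGF2R window was picked for its E-boxes, its place beside these shares is a description. The windows not shown held neither CACGTG nor CATCTG. PAPPA2 and IRS2 held 1 CANNTG each, IGF1R held none, and the windows of IGFBP2 held 3, 1 and 0. All matches describe letters in a window and show no binding.

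Values are CPM, which set the reads of a gene against all reads of its library. The steps between low values put the depth at 21.1 to 32.7 M assigned reads per library, so that 1 CPM stood for 21.1 to 32.7 reads. The targets checked the labels: MYCN averaged 70.0% of its siCTR level in siMYCN and 49.6% in siHAND2, and HAND2 averaged 54.2% of its siCTR level in siHAND2 and 114% in siMYCN. The mean of MYCN was thus lower in siHAND2 than in siMYCN, and the part of either target in the differences below was not tested. The tests used limma on log2(CPM + 1) over the 14495 genes that reached 1 CPM in 3 or more of the libraries, with Benjamini-Hochberg adjustment and a threshold of 0.05. Among the genes past the threshold, 68.3% were higher in siMYCN and 60.6% were higher in siHAND2, each set against siCTR. Median-ratio rescaling of the libraries changed this: the shares were 50.6% and 45.6%, and with quantile normalization 49.3% and 47.8%.

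PAPPA was low in control cells, at 1.47, 1.49 and 1.56 CPM in siCTR, which stood for 32.9 to 48.0 reads. The siMYCN libraries held 2.33, 3.38 and 3.25 CPM (57.9 to 94.6 reads), and the siHAND2 libraries 14.5, 13.4 and 14.8 CPM. The 3 groups did not overlap, and the order was siCTR, siMYCN, siHAND2. PAPPA rose 1.98-fold in siMYCN by the ratio of mean CPM, a log2 fold change of 0.66 on the log2(CPM + 1) scale (standard error 0.11, limma, adjusted p = 0.000174), higher in 3 of 3 libraries. That comparison shares its siCTR libraries with the one in which PAPPA was chosen. The siHAND2 mean was 9.43 times the siCTR mean and 4.76 times the siMYCN mean, log2 differences of 2.60 and 1.94. These understate the change of a gene near 1 CPM: with a pseudocount of 0.1 they were 3.15 and 2.23, and with a pseudocount of 5 they were 1.56 and 1.27. By size of the rise from siCTR to siHAND2, with falls not ranked, PAPPA was number 4 among the 14495 genes. It stood between COL1A2 (2.67) and LUM (2.45), and both are genes of extracellular matrix proteins.

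PAPPA2, the second pappalysin, measured 2.48, 2.96 and 2.51 CPM in siCTR, with 3.18, 2.76 and 3.39 CPM after siMYCN and 3.09, 3.27 and 3.19 CPM after siHAND2. Its siHAND2 libraries lay above those of siCTR, and siMYCN overlapped both. The differences of 0.17 in siMYCN (limma, adjusted p = 0.213, 95% interval -0.05 to 0.39) and 0.20 in siHAND2 (adjusted p = 0.161, interval -0.02 to 0.42) did not pass the threshold. Per kilobase of transcript, PAPPA stood below PAPPA2 in siCTR (0.137 ± 0.00441 against 0.274 ± 0.0276 CPM per kb, SD, n = 3) and above it in siHAND2 (1.30 ± 0.0647 against 0.329 ± 0.00903 CPM per kb).

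Of the known protein inhibitors of the pappalysins, STC2 was the only one of the 3 listed that passed the filter. STC2, a secreted stanniocalcin, fell from 1.78 ± 0.327 CPM in siCTR to 1.16 ± 0.328 CPM in siMYCN (log2 fold change -0.37, limma, adjusted p = 0.0422) and measured 1.73 ± 0.0895 CPM in siHAND2. The siMYCN call was lost in 7 of the 17 alternative fits that kept the gene: without siCTR replicate 1 (-0.28) or 3 (-0.38), siMYCN replicate 2 (-0.24) or 3 (-0.40) or siHAND2 replicate 2 (-0.37), with no filter, and with the compared groups fitted alone. STC1 stayed under 1 CPM in every library, with 0.299 to 0.795 CPM in siCTR, 0.0383 to 0.137 CPM in siMYCN and 0.177 to 0.279 CPM in siHAND2, and PRG2 was not analysed here.

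**Figure D1:**
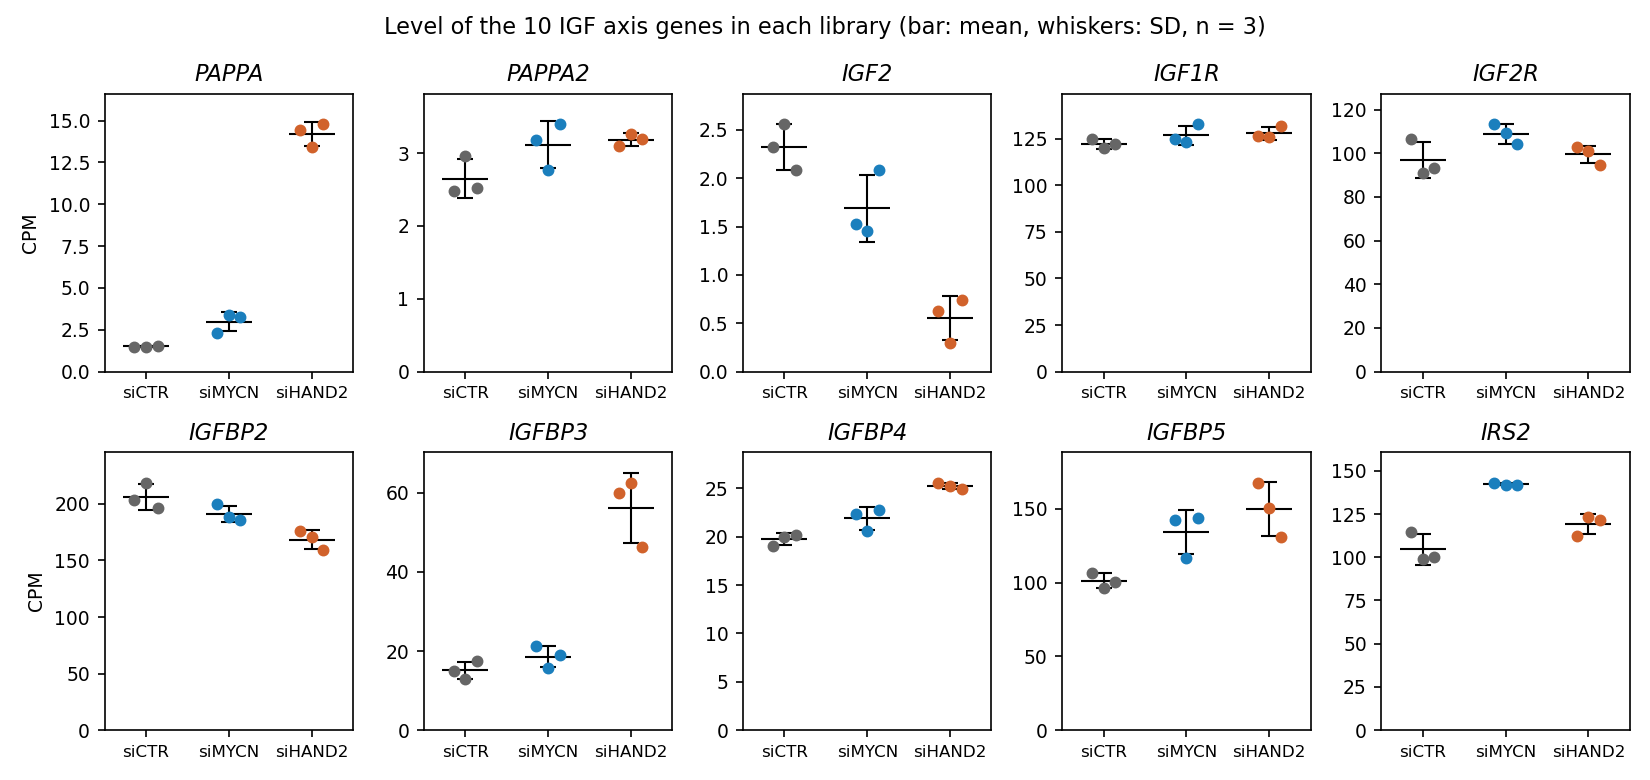
CPM (vertical axes, linear from 0) of each of the 10 genes in the 9 libraries, with 3 points per group, a bar for the mean and whiskers for the SD. PAPPA goes from 1.47 to 1.56 CPM in siCTR to 13.4 to 14.8 CPM in siHAND2 and IGFBP3 from 13.0 to 17.4 to 46.2 to 62.5 CPM, while IGF2 lies under 1 CPM in all 3 siHAND2 libraries.

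IGF2, the only ligand of the axis in the analysis, went the other way from PAPPA. It measured 2.32, 2.56 and 2.09 CPM in siCTR, with 1.53, 1.45 and 2.08 CPM after siMYCN and 0.625, 0.298 and 0.743 CPM after siHAND2. The siHAND2 libraries lay below all others. The siMYCN libraries lay below those of siCTR, the closest values being 2.08 and 2.09 CPM. IGF2 fell in siHAND2 to 23.9% of the siCTR mean (log2 fold change -1.10, standard error 0.14, limma, adjusted p = 1.55e-05) and was lower than in siMYCN by the direct comparison (-0.79, adjusted p = 0.000396). The siMYCN difference of -0.31 did not pass the threshold (adjusted p = 0.0941), except after quantile normalization (-0.38, adjusted p = 0.0477). IGF2 passed the filter on its siCTR and siMYCN libraries alone. Only 7.48 to 21.0 reads stood behind the siHAND2 values, for which counting error gives a coefficient of variation of 21.9% to 36.6%. IGF1 and INS, genes of the other ligands, were not analysed here.

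The 4 binding-protein genes among the members differed in level and direction. IGFBP3, whose product carries most IGF in serum, measured 15.0, 13.0 and 17.4 CPM in siCTR, with 21.2, 15.7 and 18.9 CPM after siMYCN and 59.9, 62.5 and 46.2 CPM after siHAND2. The siHAND2 libraries lay above all others, and the siCTR and siMYCN libraries overlapped. IGFBP3 rose 3.72-fold in siHAND2 (log2 fold change 1.83, standard error 0.12, limma, adjusted p = 7.08e-09) and stood 3.02-fold above siMYCN (1.54, adjusted p = 3.84e-08). The siMYCN difference of 0.28 did not pass the threshold (adjusted p = 0.0716), though it did in 5 of the 18 alternative fits: without siCTR replicate 3 (0.38, adjusted p = 0.0257), siMYCN replicate 2 (0.39) or siHAND2 replicate 3 (0.28), with the compared groups fitted alone, and with a replicate block.

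IGFBP4, the classic substrate of PAPPA, measured 19.01, 19.95 and 20.2 CPM in siCTR, with 22.4, 20.6 and 22.7 CPM after siMYCN and 25.6, 25.2 and 24.9 CPM after siHAND2. None of the 3 groups overlapped, in the same order as for PAPPA, over a much narrower range. IGFBP4 rose 1.28-fold in siHAND2 (log2 fold change 0.34, standard error 0.06, limma, adjusted p = 0.000363), and the siMYCN difference of 0.14 did not pass the threshold (adjusted p = 0.0713), except without siMYCN replicate 2 (0.18, adjusted p = 0.0373). The difference between the knockdowns was 0.20 (adjusted p = 0.0196), a call lost without siMYCN replicate 2 (0.16) or siHAND2 replicate 2 (0.20).

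IGFBP5, a substrate of both pappalysins, measured 107, 96.7 and 101 CPM in siCTR, with 142, 117 and 144 CPM after siMYCN and 168, 151 and 131 CPM after siHAND2. Both knockdown groups lay above siCTR and overlapped each other. IGFBP5 rose 1.33-fold in siMYCN (log2 fold change 0.40, standard error 0.08, limma, adjusted p = 0.00129) and 1.48-fold in siHAND2 (0.55, adjusted p = 8.09e-05). The difference of 0.16 between the knockdowns did not pass the threshold (adjusted p = 0.174, interval -0.02 to 0.33), except without siHAND2 replicate 3 (0.25, adjusted p = 0.0206).

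IGFBP2, a binding protein abundant in fetal and neural tissue, was the one binding-protein member that fell. It measured 203, 219 and 196 CPM in siCTR, with 200, 188 and 186 CPM after siMYCN and 176, 170 and 159 CPM after siHAND2. The siHAND2 libraries lay below all others, and siCTR and siMYCN overlapped. IGFBP2 fell in siHAND2 to 81.8% of the siCTR mean (log2 fold change -0.29, standard error 0.05, limma, adjusted p = 0.000364). It was lower than in siMYCN by -0.18 (adjusted p = 0.0121), a call lost after quantile normalization (-0.13), with no intensity trend and without siMYCN replicate 1 (-0.15). The siMYCN difference of -0.11 (adjusted p = 0.112) passed the threshold after median-ratio rescaling (-0.17, adjusted p = 0.0259), after quantile normalization (-0.18, adjusted p = 0.0125) and with a replicate block (-0.11, adjusted p = 0.0451).

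Set side by side per kilobase of transcript, the 4 binding-protein genes kept about the same total and changed in make-up. Their summed level per kilobase was 176.6 ± 6.84 CPM (SD, n = 3) in the control libraries, 173.8 ± 7.68 CPM after siMYCN and 176.1 ± 12.1 CPM after siHAND2, differences smaller than the SD. IGFBP2 made up 82.4 ± 1.39% of that sum in siCTR, 77.8 ± 1.62% in siMYCN and 67.7 ± 1.33% in siHAND2. The share of IGFBP3 was 3.29 ± 0.601%, 4.09 ± 0.438% and 12.2 ± 1.22%, and that of IGFBP5 was 9.21 ± 0.701%, 12.4 ± 1.09% and 13.6 ± 0.79%. IGFBP4 held 5.07 ± 0.261%, 5.71 ± 0.235% and 6.52 ± 0.388%. These shares are a description of transcripts, not of secreted protein, and were not tested.

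**Figure D2:**
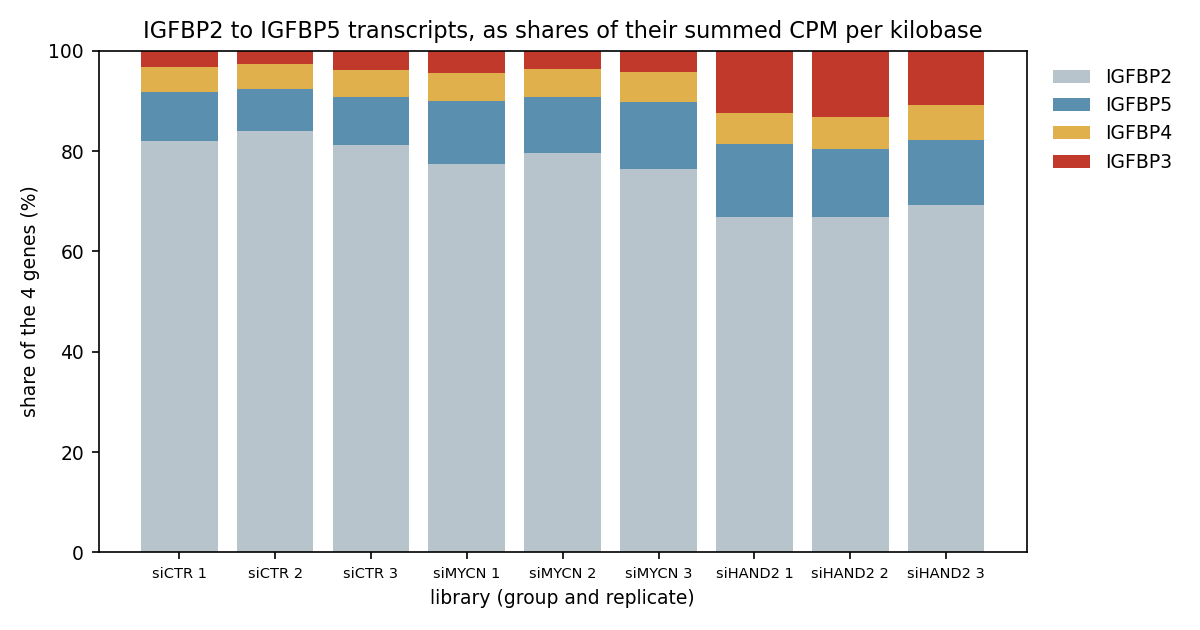
Share (vertical axis, percent) of IGFBP2, IGFBP3, IGFBP4 and IGFBP5 in their summed CPM per kilobase, 1 bar per library. The IGFBP2 share lies between 81.3% and 84.0% in siCTR and between 66.9% and 69.3% in siHAND2, and the IGFBP3 share between 10.9% and 13.3% in siHAND2 against 2.693% to 3.895% in siCTR.

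The receptors moved little. IGF1R, the signalling receptor, measured 125, 120 and 122 CPM in siCTR, with 125, 123 and 133 CPM after siMYCN and 126, 126 and 132 CPM after siHAND2. The siHAND2 values lay just above siCTR and overlapped siMYCN. Its log2 differences were 0.05 in siMYCN (limma, adjusted p = 0.378, 95% interval -0.04 to 0.14) and 0.06 in siHAND2 (adjusted p = 0.281, interval -0.03 to 0.16), none past the threshold.

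IGF2R, the clearance receptor, measured 106, 91.1 and 93.4 CPM in siCTR, with 113, 109 and 104 CPM after siMYCN and 103, 101 and 94.9 CPM after siHAND2. The siCTR libraries overlapped both knockdown groups. It passed the threshold in siMYCN (log2 fold change 0.17, limma, adjusted p = 0.0288), but the call was lost in 7 of the 18 alternative fits, namely median-ratio rescaling (0.11), quantile normalization (0.12), no intensity trend, and the fits without siCTR replicate 2 (0.13) or 3 (0.14) or siMYCN replicate 1 (0.14) or 2 (0.17). In siHAND2 the difference was 0.04 (adjusted p = 0.646).

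IRS2, the adapter that couples the IGF1 and insulin receptors to PI3K, was highest in siMYCN. It measured 115, 99.0 and 100.0 CPM in siCTR, with 143, 142 and 142 CPM after siMYCN and 112, 123 and 122 CPM after siHAND2. The siMYCN libraries lay above all others, and the siHAND2 libraries overlapped siCTR. IRS2 rose 1.36-fold in siMYCN (log2 fold change 0.44, standard error 0.05, limma, adjusted p = 1.15e-05) and was lower in siHAND2 than in siMYCN (-0.25, adjusted p = 0.00213). The smaller rise in siHAND2 (0.19, adjusted p = 0.0147) was lost in 5 of the 18 alternative fits, namely without siCTR replicate 2 (0.15, adjusted p = 0.0882) or 3 (0.16) or siHAND2 replicate 2 (0.16), after median-ratio rescaling (0.14, adjusted p = 0.0553), and with no intensity trend.

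**Figure D3:**
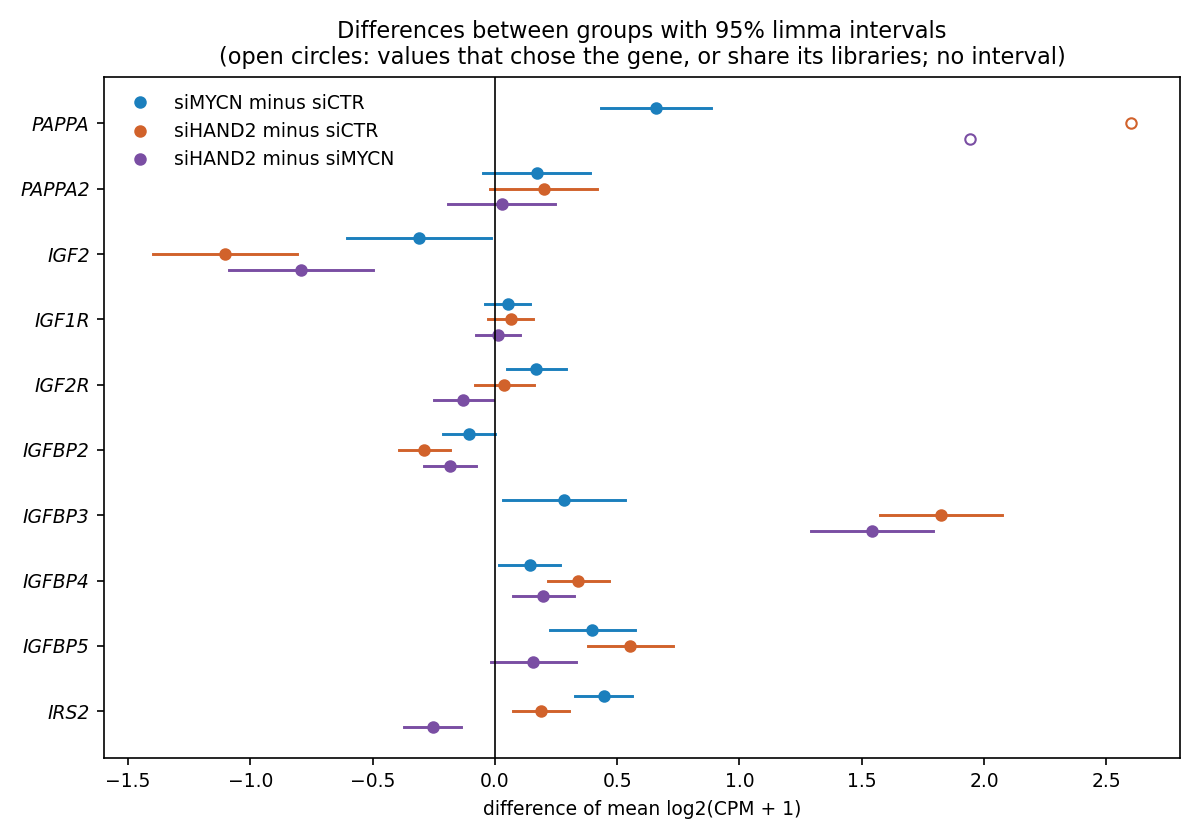
Difference of mean log2(CPM + 1) (horizontal axis) for each of the 10 genes in the 3 comparisons, with 95% limma intervals as lines; open circles mark the 2 PAPPA values with no interval, which chose the gene or share its siHAND2 libraries. IGFBP3 (1.83) and IGF2 (-1.10) lie farthest from 0 in siHAND2 after PAPPA (2.60), and IRS2 (0.44) lies farther from 0 in siMYCN than in siHAND2 (0.19).

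Counted over the axis, 4 of the 10 genes passed the threshold in siMYCN against siCTR (PAPPA, IGF2R, IGFBP5 and IRS2, all higher), where 35.9% of all tested genes did (24.5% higher and 11.4% lower). That share is near the background. In siHAND2 against siCTR 6 of the 9 genes other than PAPPA passed, 4 higher (IGFBP3, IGFBP4, IGFBP5 and IRS2) and 2 lower (IGF2 and IGFBP2), beside 29.9% of all tested genes (18.1% higher and 11.8% lower). In siHAND2 against siMYCN 5 of those 9 passed, 2 higher (IGFBP3 and IGFBP4) and 3 lower (IGF2, IGFBP2 and IRS2), beside 26.9% (11.4% higher and 15.5% lower). The median log2 difference of the 9 was 0.17, 0.19 and 0.01 in these comparisons, against 0.06, 0.04 and -0.01 over all tested genes. The first 2 comparisons share the siCTR libraries. IGF2 passed the filter only through its siCTR and siMYCN libraries, where it was higher. Its siHAND2 entries in the counts of this paragraph are therefore not independent of the filter. Libraries of the compared groups did not overlap for 5 of the 10 genes in siMYCN against siCTR (4 higher and 1, IGF2, lower), beside 49.5% of all tested genes (33.4% higher and 16.1% lower). Without PAPPA this held for 7 of 9 genes in siHAND2 against siCTR (5 higher and 2 lower), beside 42.4% (25.8% higher and 16.6% lower), and for 6 of 9 in siHAND2 against siMYCN, beside 38.7% (17.1% higher and 21.6% lower). Between siHAND2 and siCTR, a difference of 2-fold or more in log2(CPM + 1) was found for IGFBP3 and IGF2 besides PAPPA, where 0.987% of all tested genes had one.

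The genome neighbours of the members were listed with them. ASTN2, which encodes a neuronal protein trafficking factor, lies 22.9 kb beyond the end of PAPPA (chr9:116153791-116402321, plus strand, in the deposited coordinates) and on the opposite strand, so that the pair ends tail to tail. ASTN2 measured 58.2 to 60.7 CPM in siCTR, 84.7 to 88.4 CPM in siMYCN and 27.2 to 27.8 CPM in siHAND2. It rose in siMYCN (log2 fold change 0.54, limma, adjusted p = 2.48e-07) together with PAPPA and fell in siHAND2 (-1.08, adjusted p = 4.32e-11), where PAPPA was highest. A pair of short antisense genes lies inside PAPPA, and the use of strand in counting is not given in the sources used here. PAPPA-AS1 measured at most 0.527 CPM and PAPPA-AS2 at most 0.201 CPM in any library, both under the filter.

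H19, an imprinted noncoding RNA gene, lies 127.6 kb from IGF2 (chr11:2129112-2141238, minus strand) on the same strand. H19 measured 779, 785 and 609 CPM in siCTR, with 536, 488 and 437 CPM after siMYCN and 291, 251 and 259 CPM after siHAND2. The 3 groups did not overlap, in the same order as for IGF2. H19 fell by 0.57 on the log2 scale in siMYCN (limma, adjusted p = 0.000108) and by 1.43 in siHAND2 (adjusted p = 3.82e-09). The siHAND2 mean of H19 was 36.9% of its siCTR mean, against 23.9% for IGF2. The log2(CPM + 1) scale understates the fall of IGF2, a gene near 1 CPM. IGFBP2 (chr2:216632828-216664436, plus strand) and IGFBP5 (chr2:216672105-216695549, minus strand) also end tail to tail, 7.67 kb apart, and as given above IGFBP2 fell and IGFBP5 rose in siHAND2.

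**Figure D4:**
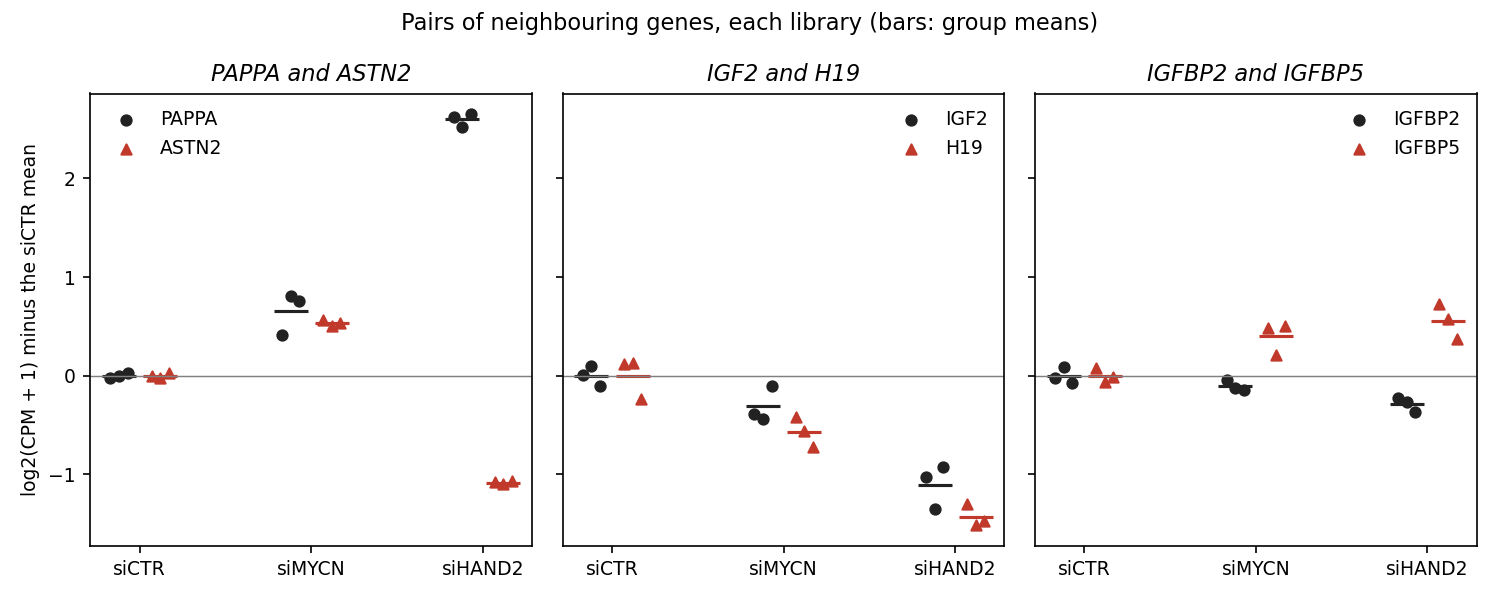
Level of each gene of 3 neighbouring pairs in each library as log2(CPM + 1) minus the siCTR mean of that gene (vertical axis), with bars at the group means. In siHAND2 PAPPA lies at 2.60 and ASTN2 at -1.08, IGF2 at -1.10 and H19 at -1.43, and IGFBP2 at -0.29 and IGFBP5 at 0.55. The scale understates changes of genes near 1 CPM: the siHAND2 mean was 23.9% of the siCTR mean for IGF2 and 36.9% for H19.

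A wider list of 74 IGF pathway genes, grouped by function, had 62 genes in the table, of which 50 passed the filter. Of these 50, 19 rose and 6 fell in siMYCN, 14 rose and 7 fell in siHAND2, and 9 were higher and 13 lower in siHAND2 than in siMYCN. Over all tested genes 24.5% rose and 11.4% fell in siMYCN, 18.1% rose and 11.8% fell in siHAND2, and 11.4% were higher and 15.5% lower in siHAND2 than in siMYCN. Their median log2 differences were 0.11, 0.03 and -0.05, against 0.06, 0.04 and -0.01 over all tested genes.

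Among receptors, INSR, the insulin receptor, rose from 59.96 ± 2.64 to 74.0 ± 1.23 CPM in siMYCN (log2 fold change 0.30, limma, adjusted p = 0.000101) and measured 62.8 ± 1.13 CPM in siHAND2. INSRR, the insulin receptor-related kinase, rose from 1.124 ± 0.132 CPM to 2.56 ± 0.238 CPM in siMYCN (0.74, adjusted p = 0.000102) and to 2.53 ± 0.318 CPM in siHAND2 (0.73, adjusted p = 0.000141). IGFBPL1, an IGFBP-like gene, was the one further binding-protein gene of the list to pass the filter. Its mean was 169 ± 2.43 CPM in siCTR, with 179 ± 5.70 CPM after siMYCN, and it fell to 109 ± 4.28 CPM in siHAND2 (-0.63, adjusted p = 1.22e-08). IGFBP6, IGFBP7 and IGFALS stayed under 1 CPM in every library.

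Of 7 tested genes for other proteases reported to cleave IGFBPs, 1 rose and 1 fell in siMYCN, and 3 rose and 2 fell in siHAND2, where 35.9% and 29.9% of all tested genes passed the threshold in either direction. ADAM12, a membrane metalloprotease, went from 17.0 ± 0.67 CPM in siCTR to 27.2 ± 0.567 CPM in siMYCN (log2 fold change 0.65, limma, adjusted p = 2.04e-05) and to 7.58 ± 1.199 CPM in siHAND2 (-1.07, adjusted p = 7.39e-08). ADAMTS1, a secreted metalloprotease, moved in the opposite directions, from 20.7 ± 1.19 CPM to 17.9 ± 0.712 CPM in siMYCN (-0.20, adjusted p = 0.0221) and 33.2 ± 1.65 CPM in siHAND2 (0.66, adjusted p = 6.76e-07). Its siMYCN call was lost without siCTR replicate 1 (-0.15) or siMYCN replicate 3 (-0.17). PLAT, tissue plasminogen activator, rose from 3.73 ± 0.887 to 8.19 ± 0.801 CPM in siHAND2 (0.97, adjusted p = 2.31e-05).

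Of 9 tested adapter genes, 4 rose in each knockdown against siCTR: SHC1, SHC2 and SOS2 in both, GRB2 in siMYCN and IRS1 in siHAND2. Over all tested genes 24.5% rose in siMYCN and 18.1% in siHAND2. SHC1, the adapter that links receptors to RAS, rose from 63.0 ± 2.27 to 99.4 ± 3.80 CPM in siMYCN (log2 fold change 0.65, limma, adjusted p = 9.31e-08) and to 76.4 ± 3.48 CPM in siHAND2 (0.27, adjusted p = 0.000471). IRS1, the second main insulin receptor substrate, rose from 12.6 ± 1.31 to 17.1 ± 0.584 CPM in siHAND2 (0.41, adjusted p = 0.000576) and measured 12.7 ± 0.535 CPM in siMYCN, whereas IRS2 was highest in siMYCN.

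Of 25 tested genes of the PI3K, AKT, mTOR and FOXO arm, 11 rose and 2 fell in siMYCN, where 35.9% of all tested genes passed the threshold, and 6 rose in siHAND2, where 29.9% did. By direction, 24.5% of all tested genes rose and 11.4% fell in siMYCN, and 18.1% rose and 11.8% fell in siHAND2. No gene of the arm was called lower in siHAND2. PIK3R1, a regulatory subunit of PI3K, rose from 48.7 ± 2.71 CPM to 62.6 ± 1.44 CPM in siMYCN (log2 fold change 0.36, limma, adjusted p = 3.43e-05) and to 73.6 ± 1.60 CPM in siHAND2 (0.59, adjusted p = 1.43e-07). DEPTOR, an mTOR inhibitor, fell from 5.45 ± 0.444 to 3.21 ± 0.412 CPM in siMYCN (-0.62, adjusted p = 0.000140) and measured 5.90 ± 0.286 CPM in siHAND2. Among the mRNA-binding proteins named for IGF2, IGF2BP1 fell from 189 ± 7.56 to 164 ± 11.8 CPM in siMYCN (-0.21, adjusted p = 0.00818), a call lost without siMYCN replicate 2 (-0.16). In siHAND2 IGF2BP1 (-0.16, limma, adjusted p = 0.0439) and IGF2BP2 (-0.22, adjusted p = 0.0185) were lower. Both siHAND2 calls were lost without siHAND2 replicate 1 (-0.10 and -0.19), among other fits. IGF2BP3 was called in neither knockdown against siCTR.

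Summed markers of mesenchymal or stromal cells had the same order of groups as PAPPA, but single members differed. Of 12 listed, 10 passed the filter, and the level summed over all 12 was 825 to 862 CPM in siCTR, 1055 to 1101 CPM in siMYCN and 1390 to 1548 CPM in siHAND2. VIM made up the largest part of that sum, at 525 ± 25.4 CPM in siCTR and 1011 ± 60.2 CPM in siHAND2. TWIST1 stayed level, at 122 ± 3.59 CPM in siCTR and 121 ± 5.25 CPM in siHAND2. COL3A1 was no higher in siHAND2 (3.84 ± 0.271 CPM) than in siMYCN (4.19 ± 0.251 CPM). In siMYCN 7 of the 10 rose (COL1A2, COL3A1, LUM, DCN, FN1, VIM and THY1), beside 24.5% of all tested genes. In siHAND2 7 of the 10 rose (COL1A2, COL3A1, LUM, DCN, FN1, VIM and SNAI2), beside 18.1% of all tested genes. Another 2 fell (CD44 and THY1), beside 11.8%, while COL1A1 and PRRX1 stayed under 1 CPM in every library. DCN, at 0.374 to 0.522 CPM in siCTR, passed the filter only through its siMYCN and siHAND2 libraries, where it was higher. Its entries in the counts of both knockdowns are therefore not independent of the filter. The 10 neuroblastoma markers all passed the filter, with summed levels of 2398 to 2534 CPM in siCTR, 3033 to 3114 CPM in siMYCN and 2564 to 2698 CPM in siHAND2. ELAVL4, a neuronal RNA-binding protein, made up the largest part of that sum, at 975 ± 23.9 CPM in siCTR and 1008 ± 23.8 CPM in siHAND2. Single members went both ways in siHAND2: TH and DBH, enzymes of catecholamine synthesis, fell to 48.6% and 49.4% of their siCTR means and DDC fell to 84.0%, while STMN2, GAP43 and ISL1 rose. In siMYCN 8 of the 10 rose. Those of Schwann cells summed to at most 2.68 CPM, those of endothelial cells to at most 1.19 CPM and those of leukocytes to at most 0.164 CPM in any library. The part of the mesenchymal markers in the result for PAPPA was not tested, and in bulk RNA more cells of a type and more RNA per cell cannot be told apart.

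The 5 genes with the profile most like that of PAPPA were found by the root mean square difference over the 9 libraries of log2(CPM + 1), each gene being centred on its siCTR mean, among the 14494 other tested genes. They were LUM (0.16 on the log2 scale), COL1A2 (0.25), PDE7B (0.25), SSTR2 (0.28) and COL12A1 (0.28). LUM encodes a matrix proteoglycan, COL1A2 and COL12A1 encode collagen chains, PDE7B a cyclic AMP phosphodiesterase and SSTR2 a somatostatin receptor. PDE7B, for example, measured 2.17 ± 0.19 CPM in siCTR, 4.37 ± 0.418 CPM in siMYCN and 13.9 ± 1.76 CPM in siHAND2. PAPPA was itself chosen for this pattern, so the likeness is a description.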

How the data were processed

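RNA of 9 LAN5 libraries (3 siCTR, 3 siMYCN, 3 siHAND2) was analysed from 1 table deposited by the authors, whose values are CPM with a constant of 0.0001 in each, removed here. Reads were handled with STAR 2.5.1 and Partek, per the submitters' processing notes, which name hg19 and GRCh37. The coordinates in the table are those of GRCh38: 91.4% of starts lay within 5000 bp of RefSeq GRCh38 starts and 5.62% within 5000 bp of GRCh37 starts by symbol. They are printed as GRCh38, with the end 1 base before the stop. How reads were assigned to genes, whether by strand, and how shared reads were treated are not given in the sources used here.

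The depth was read from the spacing of low CPM values. Only 80.0% to 81.4% of values up to 20 steps were whole within 0.02, so no count model was used. Depth gives counting error only, since reads copied by PCR are not independent.

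The 3 groups entered 1 linear model over the 9 libraries (limma 3.58.1, R 4.3.3, eBayes with trend, two-sided), which was tested on simulated data. Pseudocount 1, filter 1 CPM in 3 libraries. Errors are SDs (n = 3 libraries) or limma standard errors. Alternatives were pseudocounts of 0.1 and 5, no filter, a 5 CPM filter, rescaling by median ratios, quantile normalization, 2 groups alone, no trend, a replicate block and each library left out. CPM per kb used the MANE Select transcript length of GENCODE v44 in its GRCh37 mapping.

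The members, lists and rules were chosen with earlier results of these data known. Named were all members, their genome neighbours, direct inhibitors, the 3 smallest p-values of each list in each comparison (only some are printed) and the 5 genes most like PAPPA. HTRA1, CTSD, FOXO3, EIF4EBP1, PIK3R3 and the other genes of the lists enter by counts.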

Additional observations from a re-analysis of the deposited data

How the results depend on the processing

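Of 534 values of single members under the alternatives, 493 kept their direction and their side of the threshold (or, for the untested PAPPA differences, moved by less than 1 SD). Another 17 lost a call, 12 gained one, 6 changed sign and 6 untested PAPPA differences moved further. The sign changed only for small differences with no call: IGF1R in siMYCN after median-ratio rescaling (-0.0076), IGF2R in siHAND2 after median-ratio rescaling (-0.0056) and, with 1 library left out, IGF2R in siHAND2 (-0.0042 to 0.107, negative without siCTR replicate 2) and, in siHAND2 against siMYCN, PAPPA2 (-0.036 to 0.0764, negative without siMYCN replicate 2) and IGF1R (-0.0096 to 0.0456, negative without siMYCN replicate 2, at -0.0086, or siHAND2 replicate 3). The causes were not tested. PAPPA in siMYCN kept its call in all 18 alternative fits, at 0.59 to 0.78 with 1 library left out. All 108 recomputed counts of calls stayed within 1.5 times their value in the report. With 1 library left out, the members called were 3 to 5 in siMYCN and, without PAPPA, 5 to 6 in siHAND2 and 4 to 6 in siHAND2 against siMYCN.

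Replicate numbers are shared between groups in the labels, with nothing that says they mark a culture or day. Deviations of same-numbered libraries from their group means correlated across genes at -0.04 to 0.31 (6 of 9 pairs over 0.1). For libraries with different numbers the range was -0.30 to 0.14 (2 of 18 pairs over 0.1), and 15 of 18 library-to-group checks were best with their own number. Same-numbered libraries were thus more alike. The main fit used no pairs because the labels name none, so its p-values leave out any effect shared by a number. With a replicate block 6 members were called in siMYCN instead of 4, adding IGFBP2 and IGFBP3, and 5895 genes instead of 5209. In siHAND2 the block left 6 members, with 5089 genes instead of 4339, and against siMYCN it gave 6 instead of 5, adding IGF2R, with 4689 genes instead of 3892. A filter of 5 CPM leaves no value for IGF2, PAPPA2, STC2 and INSRR. Depth limits IGF2 and PAPPA2 in every group and PAPPA in siCTR and siMYCN, which rest on fewer than 100 reads per library.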
